A study of Mus musculus with 12 samples.

Results

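Heat shock proteins and the DnaJ co-chaperones that drive them were described after 6 weeks of corticosterone (CORT), the adrenal stress hormone of mice, in the ventral hippocampus of male mice. The members were every gene whose symbol begins with Hsp, or with Dnaja, Dnajb or Dnajc and a number, without Hsp90aa1, Hsp90ab1, Dnajc6 and pseudogenes. This gave 63 of the 17564 genes measured, 24 by an Hsp symbol and 39 by a Dnaj symbol, and all 63 were annotated as protein-coding. The choice used symbols and no measured value, although earlier results of these data were known when the list was written. Of the 63, at least 3 carry the name without being a chaperone of these families: Hspg2 codes for the matrix proteoglycan perlecan, and Hspbp1 and Hspbap1 for proteins that bind a heat shock protein.

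RNA-seq compared 4 groups of 3 libraries each, 12 in all, every library made from the pooled RNA of 2 animals. The authors' fit lists 7 residual degrees of freedom, where 12 libraries in 4 groups leave 8, so whether all 12 entered it is unknown. WT mice and BDNF het-Met mice, all male on a C57BL/6 background, received either VEH or CORT. BDNF het-Met is a knock-in genotype in which 1 copy of the gene for brain-derived neurotrophic factor codes for methionine and the other is wild-type. From 2 months of age CORT was taken by mouth at 25 mg/l with 1% ethanol, and the vehicle (VEH) held 1% ethanol too, so all groups drank ethanol. Neuronal markers of the dissected tissue, some of them of single neuron types, were present at a median of 7.84 log2 CPM (read counts scaled to library size). Among them the hippocampal granule cell marker Prox1 stood at 6.68 log2 CPM. Values per library were not analysed here: each value below is a group difference from the authors' deposited limma-voom fit (a linear model on log2 CPM) with its standard error (SE), and the reads behind each library are unknown. Nothing in the labels says that the pools of a group came from separate cages or days, so p-values measure the spread between these pools.

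Heat shock proteins bind unfolded protein and keep it from aggregating. The HSP70 proteins, coded by the Hspa genes, hold and release their client in a cycle driven by ATP: a J protein (the Dnaja, Dnajb and Dnajc genes) brings the client and starts ATP hydrolysis, and the HSP110 proteins (Hsph1, Hspa4 and Hspa4l) exchange the nucleotide that ends the cycle. The small heat shock proteins (the Hspb genes) hold clients without ATP, and the chaperonin of mitochondria (Hspd1 with its lid Hspe1) encloses them. Several of these genes are switched on by heat shock factor 1, which binds repeats of a 5-base unit called the heat shock element, while others are made at all times for the daily folding load of the cell. The glucocorticoid receptor is itself a client, loaded by HSP70 and a J protein onto HSP90.

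The start site regions of 6 members are shown because some hold exact pairs of heat shock units. Others, whose values the results below turn on, hold no exact pair. The windows are from the RefSeq promoter table on GRCm38.p6, run 5′ to 3′ along the gene and hold 250 bases before and 50 from the annotated start site on. Capitals mark paired heat shock units, GAANNTTC (head to head) or TTCNNGAA (tail to tail). Hspa1a, the classical heat-inducible HSP70, is read from chr17:34972107-34972406 on the minus strand. Hsph1, the heat-inducible HSP110, is from chr5:149636266-149636565 on the minus strand. Hspe1, the lid of the mitochondrial chaperonin, is from chr1:55087898-55088197 on the plus strand. Dnaja4, a cytosolic J protein, is from chr9:54699309-54699608 on the plus strand. Hspa4, the HSP110 made at all times, is from chr11:53300430-53300729 on the minus strand, and Hspa4l, its close relative, from chr3:40745363-40745662 on the plus strand.
Hspa1a: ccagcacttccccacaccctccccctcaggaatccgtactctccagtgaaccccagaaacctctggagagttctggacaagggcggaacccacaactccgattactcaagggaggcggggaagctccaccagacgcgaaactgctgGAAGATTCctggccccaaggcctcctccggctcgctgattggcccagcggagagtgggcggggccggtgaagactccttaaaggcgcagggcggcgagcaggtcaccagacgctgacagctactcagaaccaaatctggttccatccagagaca
Hsph1: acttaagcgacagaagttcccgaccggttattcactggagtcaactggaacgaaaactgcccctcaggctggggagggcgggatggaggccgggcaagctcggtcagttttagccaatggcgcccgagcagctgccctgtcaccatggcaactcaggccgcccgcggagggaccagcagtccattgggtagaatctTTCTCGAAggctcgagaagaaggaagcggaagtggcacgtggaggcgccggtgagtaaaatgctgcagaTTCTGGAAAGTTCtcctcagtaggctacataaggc
Hspe1: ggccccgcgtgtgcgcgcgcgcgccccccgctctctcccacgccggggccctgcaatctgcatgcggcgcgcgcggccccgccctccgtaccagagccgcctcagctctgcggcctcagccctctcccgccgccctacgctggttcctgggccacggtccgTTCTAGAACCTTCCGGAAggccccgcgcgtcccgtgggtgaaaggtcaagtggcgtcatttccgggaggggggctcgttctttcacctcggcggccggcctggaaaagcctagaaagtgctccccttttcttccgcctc
Dnaja4: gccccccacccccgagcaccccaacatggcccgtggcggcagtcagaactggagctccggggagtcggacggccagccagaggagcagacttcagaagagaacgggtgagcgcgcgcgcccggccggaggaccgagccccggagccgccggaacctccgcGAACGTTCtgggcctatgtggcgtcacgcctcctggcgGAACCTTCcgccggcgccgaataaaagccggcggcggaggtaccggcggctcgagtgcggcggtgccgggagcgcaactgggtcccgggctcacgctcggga
Hspa4: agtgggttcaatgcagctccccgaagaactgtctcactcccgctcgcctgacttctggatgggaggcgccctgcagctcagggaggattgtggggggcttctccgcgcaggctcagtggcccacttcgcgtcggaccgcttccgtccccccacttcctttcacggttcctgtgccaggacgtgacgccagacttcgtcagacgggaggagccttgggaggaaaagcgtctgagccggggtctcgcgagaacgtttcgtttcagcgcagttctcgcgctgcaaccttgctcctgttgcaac
Hspa4l: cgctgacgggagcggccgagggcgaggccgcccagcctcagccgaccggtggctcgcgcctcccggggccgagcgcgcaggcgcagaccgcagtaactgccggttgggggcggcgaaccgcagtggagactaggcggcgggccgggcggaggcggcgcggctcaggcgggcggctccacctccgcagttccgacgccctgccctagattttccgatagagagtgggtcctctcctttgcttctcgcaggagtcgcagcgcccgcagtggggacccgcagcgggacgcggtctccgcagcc

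A head to head pair lay 104 bases before the start of Hspa1a and 90 and 52 bases before that of Dnaja4. Hspe1 held a run of units from 89 bases before its start, and Hsph1 held a pair 54 bases before and a run from 15 bases after it. Hspa4 and Hspa4l held neither pair in these windows. Of the 54 members with a window in the table, 12 (22.2%) held GAANNTTC, against 7.07% of the 12050 measured genes with a window, and 6 (11.1%) held TTCNNGAA, against 8.22%. The 3-unit run GAANNTTCNNGAA, which overlaps both pairs, was found in Dnajb6, Hspd1, Hspe1 and Hsph1, 7.41% of members against 0.564% of genes. Hspd1 and Hspe1 are read in opposite directions from the same site, so they share these letters. The core of the glucocorticoid response element, ACANNNTGT, was found in 1 member window, that of Hspa1l, against 5.50% of genes. All 4 motifs were searched on both strands, and a match describes the letters only. Imperfect units and sites outside the windows were not searched, so a gene without a match may still have heat shock elements. The windows of Dnajb1, for example, held no match.

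The members stood high in this tissue. Their median mean expression was 5.71 log2 CPM, against 3.87 over all genes. Per length of exon the highest were Hsp90b1, the HSP90 of the endoplasmic reticulum (ER), at 6.17 log2 CPM per kb, Hspa8, the HSP70 made at all times, at 6.16, and the J protein Dnaja2 at 6.11. Dnajc5, the J protein of synaptic vesicles known as cysteine string protein, followed at 6.01, and Hspa9, the HSP70 of mitochondria, at 5.82. The stress-inducible list as a whole had a median of 3.78 log2 CPM per kb, against 1.96 over all genes, but within it Hspb1 at -0.42, Hspa1a at 0.24 and Hspa1b at 1.46 stood low and Hspa8, Hsph1 at 5.47 and Hspd1 at 4.99 high. The lowest was Dnajb13, a J protein of motile cilia and sperm, at -1.74. Levels of single libraries were not at hand, so no neighbours in this order were tested against each other.

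**Figure D1:**
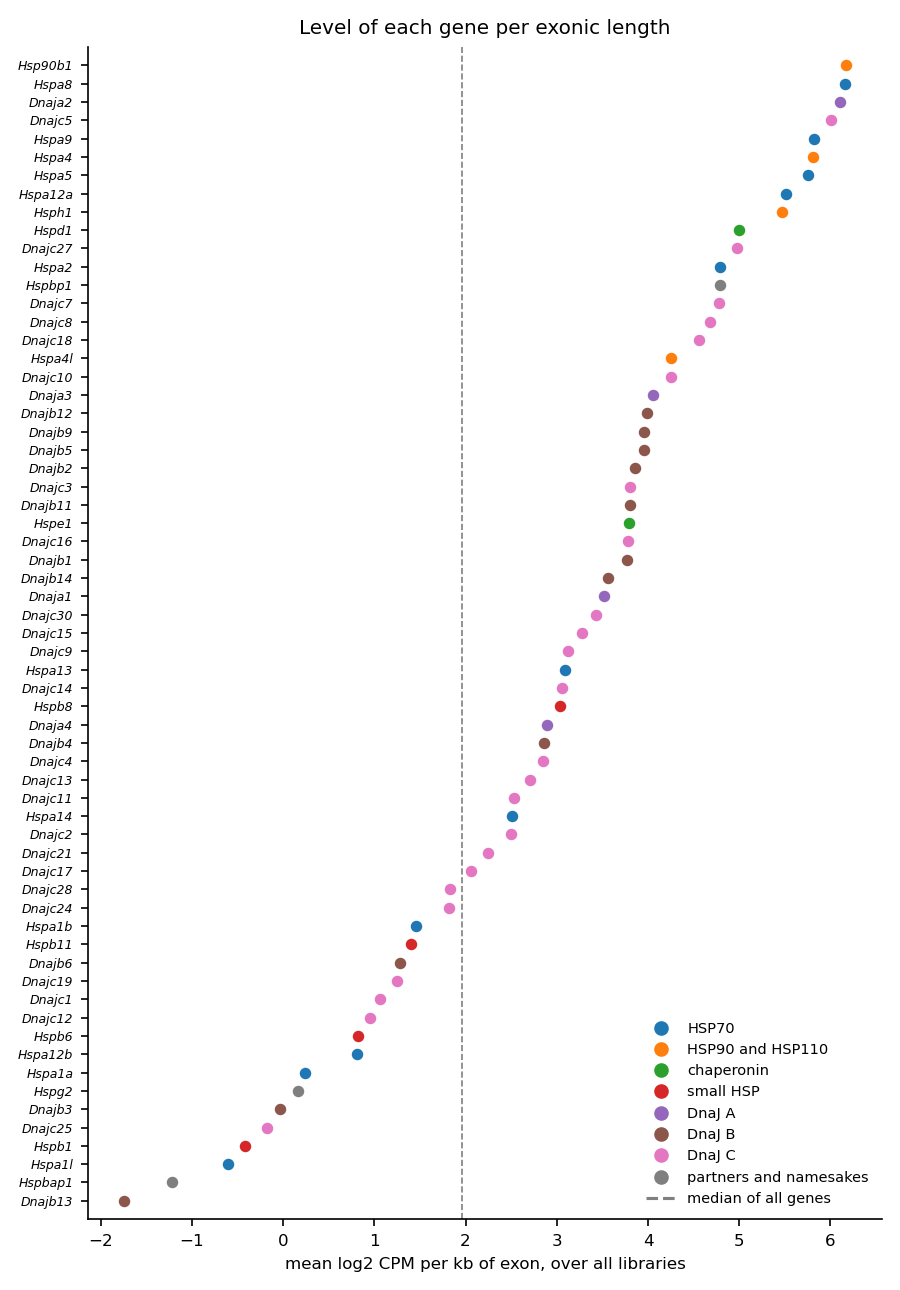
Mean expression of the 63 members per length of exon (log2 CPM per kb, over all libraries), each point a gene, ordered by level and coloured by family, with the median of all genes as a dashed line. Hsp90b1 of the ER (6.17), Hspa8 (6.16) and Hspa9 of mitochondria (5.82) stand near 6 and Hspa1a at 0.24. The medians of the listed ER and mitochondrial members were lower, 3.88 and 3.61.

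In BDNF het-Met mice 10 members rose under CORT and none fell. Rose and fell are used for an uncorrected p below 0.05 of the limma test. The 10 are 15.9% of members, where 6.55% of all genes rose and 6.64% fell in the same comparison. They were 3 HSP70 genes (Hspa1a, Hspa8 and Hspa12a), all 3 HSP110 genes (Hspa4, Hspa4l and Hsph1) and 4 J proteins (Dnaja4, Dnajb14, Dnajc16 and Dnajc28). The changes were small, from 1.09-fold for Dnajc16 to 1.25-fold for Hspa1a. Of the 63 members 44 had a positive log2 fold change (69.8%, against 48.2% of all genes), and the median was 0.04 against -0.01 over all genes. Above 5 log2 CPM, a limit chosen after the data were seen, the median was 0.05 for members and 0.02 for all genes. No member passed Benjamini-Hochberg adjustment over the 17564 genes (the smallest adjusted p of a member was 0.264 by limma), nor did any other gene of this comparison. With a fold change above 1.3 required as well, the rule of the study, 0 members were left, against 3.24% of all genes.

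In WT mice 1 member rose and 2 fell, 3 of 63 (4.76%), where 2.25% of all genes rose and 1.57% fell. Hspa1l rose 1.39-fold, and Hspa12b and Dnajc25 fell to 0.827 and 0.832 of their VEH level. Positive and negative values were balanced, 33 and 30, with a median log2 fold change of 0.0012. The median SE of the members was wider here, 0.071 against 0.063 in BDNF het-Met mice, so the counts of calls are not on equal terms. The smallest adjusted p of a member was 0.999 by limma, and no gene of the table passed adjustment in this comparison. Over all genes 3.83% were called, fewer than an uncorrected p below 0.05 gives on average where no gene changes. With the fold rule 1 member was left, Hspa1l, against 1.25% of all genes. None of these 3 was among the 10 of BDNF het-Met mice, while over all genes 267 of the 672 called in WT mice were also called there; with 3 members nothing can be read from this.

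**Figure D2:**
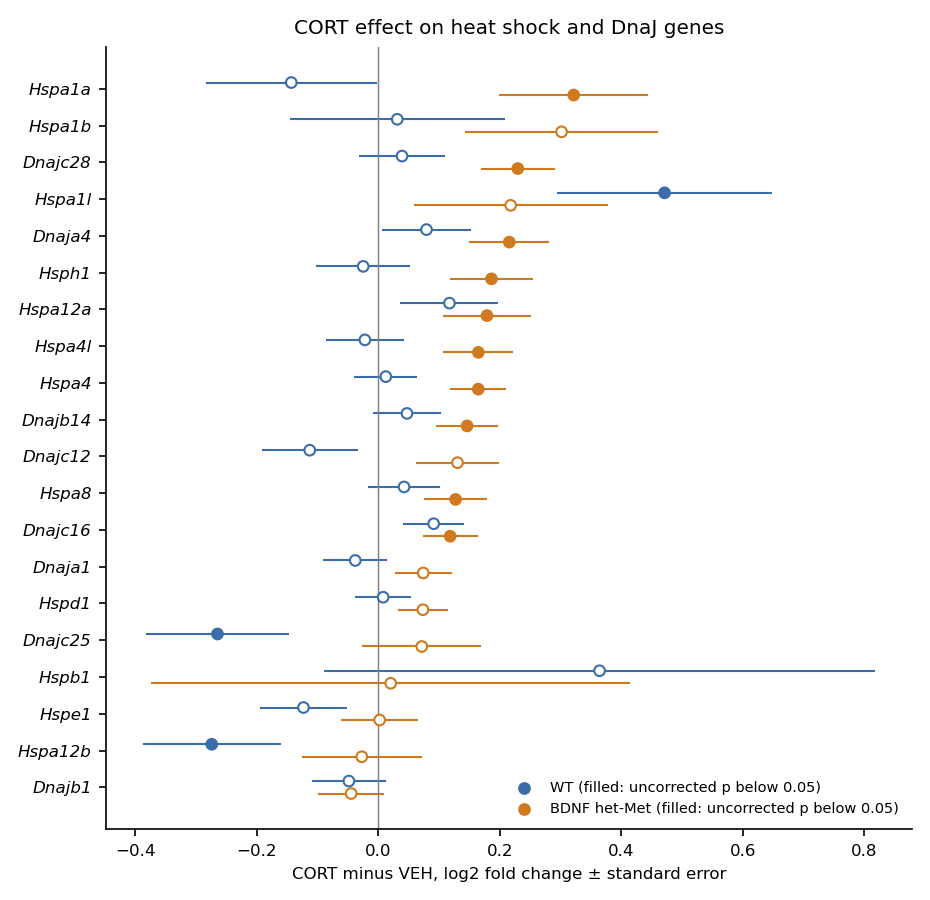
CORT effect on 20 named members (log2 fold change, CORT against VEH, positive when higher under CORT) in WT and BDNF het-Met mice, points with bars of 1 SE of the limma fit, filled where the uncorrected p was below 0.05. The HSP110 genes stand right of 0 in BDNF het-Met mice (0.16 to 0.19) and at 0 in WT mice (-0.02 to 0.01).

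The HSP110 genes, the nucleotide exchange partners of HSP70, had values close to each other. Hspa4 (chr11:53259814-53300457) had a log2 fold change of 0.16 ± 0.05 (SE) in BDNF het-Met mice with an uncorrected p of 0.00453, and of 0.01 ± 0.05 in WT mice. Hspa4l (chr3:40744495-40796103) had 0.16 ± 0.06 with an uncorrected p of 0.0156 in BDNF het-Met mice, against -0.02 ± 0.06 in WT mice. Hsph1 (chr5:149614287-149636376) had 0.19 ± 0.07 with an uncorrected p of 0.0209, and -0.02 ± 0.08 in WT mice. All 3 rose 1.12-fold to 1.14-fold in 1 genotype and lay within 1 SE of 0 in the other, and Hsph1 lost its call once the median of its expression quintile was taken off (p 0.0510). In BDNF het-Met mice 6.55% of all genes rose, and 13.0% of genes above 5 log2 CPM. The 3 genes belong to the latter, at 7.82 to 8.33 log2 CPM. The difference between genotypes missed the threshold for each, with an uncorrected p of 0.0508 for Hspa4, 0.0537 for Hspa4l and 0.0667 for Hsph1, so a difference between the genotypes was not shown. For Hspa4 the 95% interval of that difference ran from -0.0006 to 0.31 on the log2 scale. In the windows shown above, Hsph1 held exact pairs of heat shock units and Hspa4 and Hspa4l held no exact pair. Hsp90b1, grouped with them as the HSP90 of the list, had a log2 fold change of 0.07 in BDNF het-Met and -0.09 in WT mice and passed neither test.

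Among the 11 HSP70 genes, 3 rose in BDNF het-Met mice (27.3%, against 6.55% of all genes). Their median log2 fold change was 0.13 there, against 0.02 in WT mice, over all 11. Hspa1a (chr17:34969190-34972156, minus strand) had the largest rise of the 10, 0.32 ± 0.12 on the log2 scale with an uncorrected p of 0.0242 in BDNF het-Met mice, and -0.14 ± 0.14 with an uncorrected p of 0.330 in WT mice. It was 1 of 2 members that passed the uncorrected test of a difference between genotypes, a count that depends on the setting (given with the test of all members below). The difference was 0.47 ± 0.19, with a 95% interval from 0.05 to 0.88 and an uncorrected p of 0.0302 (adjusted p 0.9999). Its copy Hspa1b had 0.30 ± 0.16 with an uncorrected p of 0.0854 in BDNF het-Met and 0.03 ± 0.18 in WT mice. These genes share 2201 bases of transcript at 99.2% identity and 296 of 300 bases of start site region, so 75-base reads can fall on either, and no source used here says how such reads were counted. The split of the signal between Hspa1a and Hspa1b is therefore uncertain. Hspa8 (chr9:40800984-40810087), which uncoats clathrin vesicles at synapses among its many roles, rose by 0.13 ± 0.05 with an uncorrected p of 0.0339 in BDNF het-Met mice and had 0.04 ± 0.06 in WT mice. It shares long stretches with several pseudogenes, of which Gm8355 (1941 bases at 98.7% identity) had 0.62 ± 0.24 and Gm6210 (1942 bases at 98.6% identity) 0.01 ± 0.16 in BDNF het-Met mice.

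Hspa12a and Hspa12b belong to a distant branch of the HSP70 family, the first rich in neurons and the second in endothelium, and they had unlike values. Hspa12a (chr19:58795750-58943654) rose by 0.18 ± 0.07 with an uncorrected p of 0.0308 in BDNF het-Met mice and had 0.12 ± 0.08 in WT mice. With the gene's own ordinary SE in place of the moderated one its p was 0.0644, above the threshold of 0.05, so the call was lost. Hspa12b (chr2:131127280-131146321) fell by 0.27 ± 0.11 on the log2 scale with an uncorrected p of 0.0342 in WT mice and had -0.03 ± 0.10 in BDNF het-Met mice. The endothelial markers measured beside it had a median of -0.08 in WT mice, against -0.04 in BDNF het-Met mice, and 0 of the 8 passed the test in either. Of 5 mural cell markers measured 1 fell in WT mice (20.0%, against 1.57% of all genes), with a median of -0.06. The part of endothelial or mural content in the value of Hspa12b was not tested. In bulk tissue fewer cells of a type and less RNA per cell cannot be told apart.

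Hspa1l, an HSP70 otherwise known from testis, lies next to Hspa1a on chromosome 17 and is read in the opposite direction. It rose in WT mice by 0.47 ± 0.18 with an uncorrected p of 0.0219, and had 0.22 ± 0.16 in BDNF het-Met mice with an uncorrected p of 0.200. It was a weakly expressed gene, at 0.70 log2 CPM, and 71.9% of its exonic length lies on the other strand from exons of Gm10501. The libraries were stranded, but no source used here gives the strand setting of the counting, so reads of both genes may not have been told apart. Gm10501 itself had -0.01 ± 0.27 in WT mice. Above 1 log2 CPM, where Hspa1l drops out, no member rose in WT mice.

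The list of 10 members taken as stress-inducible was Hspa1a, Hspa1b, Hspa8, Hspa4l, Hsph1, Hspb1, Hspd1, Hspe1, Dnaja1 and Dnajb1. Some of these, Hspa8 first among them, are also made in large amounts without stress. In BDNF het-Met mice the list had a median log2 fold change of 0.10, with 9 of 10 positive, against 48.2% of all genes. Of the 10, 4 were called higher there (40.0%, against 6.55% of all genes and 13.0% of genes above 5 log2 CPM). The median level of the list was 5.92 log2 CPM, and genes above 5 log2 CPM had a median log2 fold change of 0.02 in BDNF het-Met mice. In WT mice the median log2 fold change was -0.02, with 4 of 10 positive (against 48.9% of all genes) and none called (against 3.83%). The 4 called were Hspa1a, Hspa8, Hspa4l and Hsph1. Of the others, Hspa1b is described above and the rest passed no test. Hspb1, a small heat shock protein, had 0.02 ± 0.39 in BDNF het-Met and 0.36 ± 0.45 in WT mice, with the widest error of the list. Dnajb1, the J protein most used as a readout of heat shock factor 1, had -0.04 ± 0.05 and -0.05 ± 0.06. Dnaja1 had 0.07 ± 0.05 in BDNF het-Met and -0.04 ± 0.05 in WT mice. Hspd1 had 0.07 ± 0.04 with an uncorrected p of 0.0998 in BDNF het-Met mice, and Hspe1, which shares its start site region, had 0.002 ± 0.06. Heat shock factors 1 and 2 themselves, Hsf1 and Hsf2, had 0.04 and 0.03 in BDNF het-Met mice, against 0.04 each in WT mice, and passed no test.

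The remaining small heat shock genes were measured with wide errors. Hspb8, which works with Bag3 in the removal of aggregates, had 0.17 ± 0.24 in BDNF het-Met and -0.01 ± 0.28 in WT mice. Hspb6, abundant in muscle, had -0.28 ± 0.18 and -0.06 ± 0.21. Hspb11, better known for transport inside cilia and counted here by its symbol, had -0.08 ± 0.08 and -0.05 ± 0.09. None of the 4 Hspb genes passed the test in either genotype. The median SE over all members was 0.06 in BDNF het-Met mice, so changes of the size seen in the HSP110 genes were not detectable in Hspb1, Hspb6 and Hspb8 with their wider errors.

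The J proteins were mixed. In BDNF het-Met mice 4 of 39 rose (10.3%, against 6.55% of all genes and 13.0% of genes above 5 log2 CPM), none fell, and 25 had a positive value. Dnajc28 (chr16:91614254-91619026), a little studied J protein, had the smallest p of any member, 0.00320, with a log2 fold change of 0.23 ± 0.06 in BDNF het-Met and 0.04 ± 0.07 in WT mice. Dnaja4 (chr9:54698873-54716315), a cytosolic partner of HSP70 with links to cholesterol synthesis, rose by 0.22 ± 0.07 with an uncorrected p of 0.00729 and had 0.08 ± 0.07 in WT mice. Of its exonic length 44.1% lies opposite Wdr61, which had 0.05 ± 0.06 in BDNF het-Met mice. Dnajb14 (chr3:137867675-137916557), which sits in the ER membrane with its J domain facing the cytosol, rose by 0.15 ± 0.05 with an uncorrected p of 0.0147. Dnajc16 (chr4:141760189-141790931), a membrane J protein, had like values in both genotypes, 0.12 ± 0.05 with an uncorrected p of 0.0241 in BDNF het-Met mice and 0.09 ± 0.05 with an uncorrected p of 0.0992 in WT mice. By class, 3 of 4 DnaJ A, 5 of 11 DnaJ B and 17 of 24 DnaJ C genes had a positive value in BDNF het-Met mice.

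Dnajc25 and Dnajc12 had values of opposite sign in the genotypes. Dnajc25 (chr4:58995062-59025573) fell in WT mice by 0.26 ± 0.12 on the log2 scale with an uncorrected p of 0.0454 and had 0.07 ± 0.10 in BDNF het-Met mice, and the difference had an uncorrected p of 0.0503. Dnajc12 (chr10:63382443-63410576), the co-chaperone of the aromatic amino acid hydroxylases that make serotonin and dopamine, had -0.11 ± 0.08 in WT mice, against 0.13 ± 0.07 in BDNF het-Met mice, neither past the threshold. Its difference between genotypes was 0.24 ± 0.10, with a 95% interval from 0.01 to 0.47 and an uncorrected p of 0.0398 (adjusted p 0.9999).

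By compartment list, 1 of 10 ER members (10.0%) and none of 8 mitochondrial members rose in BDNF het-Met mice, against 6.55% of all genes. No member of either list was called in WT mice. Of the 10 ER members 8 had a positive value in BDNF het-Met mice (80.0%, against 48.2% of all genes). Their median log2 fold change was 0.06, against 0.02 for genes above 5 log2 CPM, and Dnajb14 was the 1 that rose. Hspa5, the HSP70 of the ER known as BiP and the usual readout of the unfolded protein response, had 0.14 ± 0.07 with an uncorrected p of 0.0580 in BDNF het-Met mice, against 0.0014 ± 0.07 in WT mice. Dnajb9, a sensitive target of the same response, had -0.03 ± 0.06 and -0.03 ± 0.07. The 8 mitochondrial members had a median of 0.01 in each genotype and none passed the test. Hspa9, which pulls proteins into mitochondria, had 0.05 ± 0.04 in BDNF het-Met and 0.02 ± 0.04 in WT mice. Dnajc5 and Dnajc13, of synaptic vesicles and endosomes, both had 0.05 in BDNF het-Met mice and -0.01 and 0.02 in WT mice. The 7 members that work at ribosomes, on RNA or on histones had a median of -0.02 in each genotype, with none called.

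**Figure D3:**
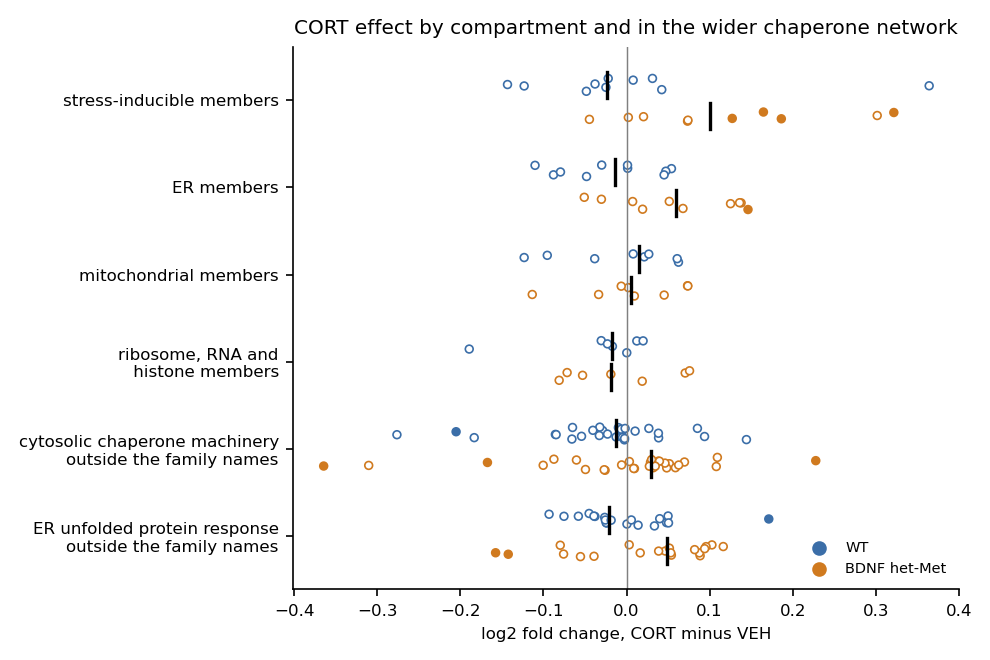
Log2 fold change (CORT against VEH) of the genes of each list in WT and BDNF het-Met mice, 1 point per gene, filled where the uncorrected p was below 0.05, with black lines at the medians. The stress-inducible members lie mostly right of 0 in BDNF het-Met mice (9 of 10, against 48.2% of all genes) and on both sides in WT mice (4 of 10 positive, against 48.9%).

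Testing each member's effect directly gave few differences between genotypes. At an uncorrected p below 0.05, 2 members passed, Hspa1a and Dnajc12 (3.17%, against 2.41% of all genes). Both shares are below what this threshold gives on average where no gene differs. The count was 4 (6.35%, against 2.42% of genes) after centring on the median of all genes and 5 (7.94%, against 3.42%) with the ordinary SE, and 0 members passed adjustment in any of these. A rise called in 1 genotype and not in the other is not a shown difference. Of the 63 members 30 (47.6%) had the same sign in both genotypes, against 62.5% of all genes. The low share lay in the Dnaj members, with 14 of 39 (35.9%), while 16 of 24 Hsp members (66.7%) had the same sign. Across members the log2 fold changes of the genotypes had a Pearson r of -0.02, against 0.30 across all genes. It was 0.18 across Hsp members and -0.32 across Dnaj members. Above 1 log2 CPM r was 0.09 across all members, against 0.44 across genes. The genotypes share no library but share the model's estimate of the spread, and genes are not independent replicates, so these are descriptions.

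**Figure D4:**
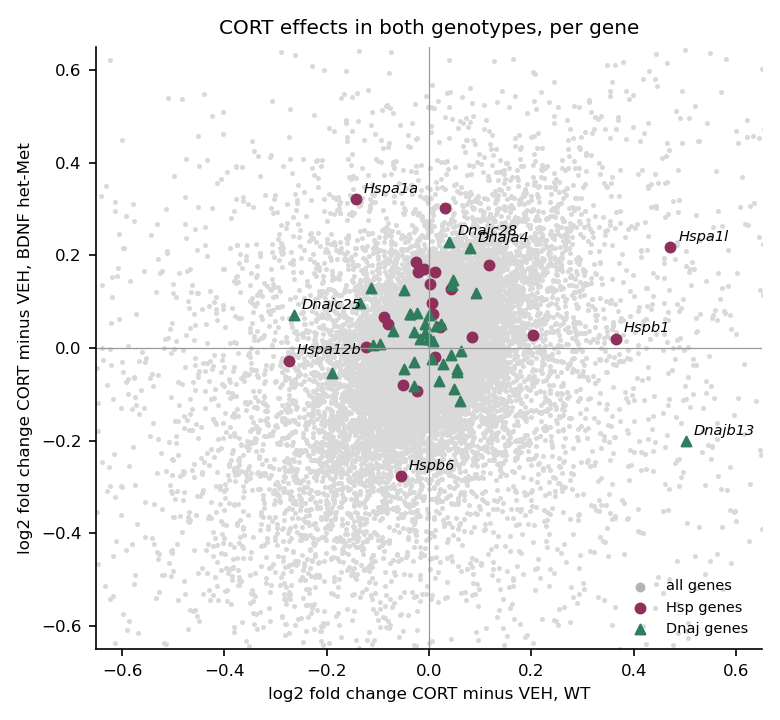
CORT effect in WT (x axis) against BDNF het-Met mice (y axis), both log2 fold changes, with members coloured over all genes in grey; axes end at 0.65, so genes with larger changes are not drawn. Members called in BDNF het-Met mice lie above 0 on the y axis and between -0.14 and 0.12 on the x axis, and Hspa1l lies far right at 0.47.

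Averaged over both genotypes with equal weight, 7 members rose and none fell (11.1%), where 7.17% of all genes rose and 6.18% fell. They were Dnajc16, Dnaja4, Hspa1l, Dnajc28, Hspa12a, Dnajb14 and Hspa4. Dnajc16 had the smallest uncorrected p, 0.0104, with a mean log2 fold change of 0.10 ± 0.03, and Hspa1l the largest mean, 0.34 ± 0.12. Hspa8 missed the threshold with 0.08 ± 0.04 and an uncorrected p of 0.0545. Over all genes 13 (0.074%) passed adjustment in this comparison, none of them a member, and the smallest adjusted p of a member was 0.253 in this test, which combines both limma effects.

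The members' expression level moved with the count in BDNF het-Met mice. Among genes above 5 log2 CPM, a limit chosen after the data were seen, 7 of 35 members rose (20.0%) where 13.0% of the 5945 genes did, so the gap to the background was smaller among well expressed genes. After the median of each gene's expression quintile was taken off, 6 members rose (9.52%), against 5.65% of all genes. Hspa1a, Hspa4, Hspa4l, Dnaja4, Dnajc12 and Dnajc28 passed on that scale, and Hspa8, Hsph1, Hspa12a, Dnajb14 and Dnajc16 no longer did. In WT mice 0 of the 35 passed the limma test above 5 log2 CPM, against 4.44% of genes.

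The wider chaperone network was listed apart from the family names. Of 29 cytosolic genes (the CCT chaperonin, BAG proteins, HSP90 co-chaperones and heat shock factors) 1 rose in BDNF het-Met mice and 2 fell. Together these were 10.3% of the list, against 13.2% of all genes called there. Chordc1, an HSP90 co-chaperone, rose by 0.23 ± 0.05 with an uncorrected p of 8.19e-04 (adjusted p 0.243 by limma) and had 0.09 ± 0.06 in WT mice. Bag2, which releases nucleotide from HSP70, fell in both genotypes, by 0.17 ± 0.07 on the log2 scale in BDNF het-Met mice and by 0.21 ± 0.09 in WT mice. Cryab, a small heat shock protein under another name and abundant in oligodendrocytes, fell by 0.36 ± 0.13 in BDNF het-Met mice with an uncorrected p of 0.0167. In WT mice 22 of the 29 had a negative value and 7 a positive one (24.1%, against 48.9% of all genes). Of the negative values 1 was called (3.45% of the list, against 3.83% of all genes called).

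Of 20 genes of the ER unfolded protein response, none rose and 2 fell in BDNF het-Met mice (10.0% called, against 13.2% of all genes). Ddit3, the transcription factor CHOP, fell there by 0.16 ± 0.06 with an uncorrected p of 0.0198 and rose in WT mice by 0.17 ± 0.06 with an uncorrected p of 0.0232. The difference between genotypes was -0.33 ± 0.09, with an uncorrected p of 0.00307 (adjusted p 0.9999). Herpud1, of ER-associated degradation, fell by 0.14 ± 0.05 in BDNF het-Met mice. The cold-inducible RNA-binding gene Cirbp, whose level falls as temperature rises, fell by 0.37 ± 0.12 with an uncorrected p of 0.00856 in BDNF het-Met mice and had -0.03 ± 0.13 in WT mice, and its relative Rbm3 had -0.12 ± 0.11 and 0.15 ± 0.12. None of 11 activity-regulated genes passed the test in either genotype, with medians of -0.06 in BDNF het-Met and 0.13 in WT mice. Of these, Fosb passed the test of the difference (-0.40 ± 0.17, uncorrected p 0.0375) and Btg2 that of the mean (0.16 ± 0.07, uncorrected p 0.0411). The 3 genes that the name rule left out had 0.13 (Dnajc6, the J protein auxilin, uncorrected p 0.0152), 0.10 (Hsp90aa1) and 0.07 (Hsp90ab1) in BDNF het-Met mice, and 0.03, -0.02 and 0.03 in WT mice.

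Glial markers moved in the same comparison as the 10 rises, and some astrocyte markers in WT mice as well. In BDNF het-Met mice 5 of 8 microglia markers fell (62.5%, against 6.64% of all genes), with a median log2 fold change of -0.43 and a range from -0.65 to -0.32. In WT mice no microglia marker passed, with a median of -0.19. Of 7 astrocyte markers 4 fell and 2 rose in BDNF het-Met mice (85.7% called, against 13.2% of all genes), with a median of -0.25. In WT mice 1 astrocyte marker fell and 2 rose (42.9% called, against 3.83% of all genes), with a median of -0.02. These 3 were also called in BDNF het-Met mice. Of 8 oligodendrocyte markers 3 fell in BDNF het-Met mice (37.5%, against 6.64% of all genes) and 0 were called in WT mice, with medians of -0.32 and -0.07. Of 10 neuronal markers, some of them of single neuron types, 1 rose in BDNF het-Met mice (Gad1, 10.0%, against 6.55% of all genes). The median of the 10 was 0.03 in each genotype. Choroid plexus markers had a median of -1.16 in WT mice, against 0.20 in BDNF het-Met mice with none called, and blood markers 0.58 and 0.64. Each marker of these lists was among the measured genes. Their part in the values of the members was not tested.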

How the data were processed

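Ventral hippocampus RNA (12 libraries, 4 groups of 3) was sequenced from 1 end as stranded reads of 75 bp, planned at 35 to 40 M a library. The authors removed low-quality reads, aligned with STAR to GRCm38 (mm10 in the labels), counted with featureCounts and fitted limma-voom; versions, the filter on weak genes, normalization and strand settings were not given in the sources used here, and depth per library is unknown. The deposited log2 values are mean expression (log2 CPM) and the log2 fold change of each comparison with its SE. The deposited p-values are the uncorrected p, its Benjamini-Hochberg adjustment over 17564 genes and that of a joint F. The deposited scores are the moderated t and F. These columns are the authors' own comparisons; they were taken as the data because the members are defined on them.

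The fold change was turned so that positive is higher under CORT, by the comparison names (Spink8 then reads 0.58 in WT mice, against 0.74 in BDNF het-Met mice), although the direction that the text of the study gives for a few genes disagrees. SE is the log2 fold change over the moderated t. Differences and means of both effects used the summed squared SEs, with the total degrees of freedom of the fit (10.9084). The listed residual degrees of freedom were 7, where 12 libraries in 4 groups leave 8, and the median ratio of ordinary SEs, WT over BDNF het-Met, was 1.12, the value for 2 against 3 libraries over 3 against 3. Whether a WT library was left out was not tested.

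Members, lists and tests were chosen with earlier results of these data known. Named were the stress-inducible list, members past the threshold (at most 8 per genotype), the 5 and 8 of smallest p for the difference and mean, the 5 highest levels and the 3 of smallest p per genotype from the lists outside the family names; others were named after their values were seen. Positions and exonic lengths are from GENCODE M21 (17557 identifiers matched, 7 did not). Shared sequence was searched with blastn 2.17.0 (at least 75 bases at 98% identity), and 21 members had a match. Computation used Python 3.11.15, numpy 2.4.6, scipy 1.17.1, pandas 2.3.3 and matplotlib 3.10.9, and the tests of differences and means were tested on simulated data.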

Additional observations from a re-analysis of the deposited data

Results flagged for a closer look

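The CORT effect passed the test of the difference between genotypes in 2 members, both without correction. In Hspa1a the log2 fold change was 0.47 higher in BDNF het-Met than in WT mice (0.32 against -0.14), with an uncorrected p of 0.0302. In Dnajc12 it was 0.24 higher (0.13 against -0.11), with an uncorrected p of 0.0398. Both had an adjusted p of 0.9999 over all genes. Over all genes 424 (2.41%) passed the uncorrected threshold. That is fewer than a p below 0.05 gives on average where no gene differs. Reads of Hspa1a may be shared with Hspa1b, whose difference was 0.27 ± 0.24 with an uncorrected p of 0.281.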

How the results depend on the processing

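Centring on the median of all genes, inverse-variance weighting of the mean and leaving out Hspg2, Hspbp1 and Hspbap1 kept each count of members within 1.5 times, except the difference between genotypes after centring, with 4 members (6.35%, against 2.42% of genes). With the ordinary SE that count was 5 (7.94%, against 3.42%). At an uncorrected p below 0.01, 0 members were left in WT mice (0 higher and 0 lower, against 0.569% of genes), 3 in BDNF het-Met mice (4.76%, all 3 higher, against 1.73% of genes higher), 0 for the difference (against 0.211%) and 0 for the mean (0 higher, against 3.95% of genes called). With a fold change above 1.3, 1 was left in WT mice (0 lower), against 0 in BDNF het-Met mice (0 higher). Expression quintile centring left 1 lower in WT mice, and left 6 in BDNF het-Met mice (6 higher). Above 1 log2 CPM 0 members were higher in WT mice. Above 5 log2 CPM, a limit chosen after seeing the data, 0 passed in WT mice (0 higher and 0 lower), with 19 of 35 positive there and 25 in BDNF het-Met mice. Quintile centring left 30 members positive in WT mice, with a median of -0.0063 in place of 0.0012, and 42 in BDNF het-Met mice. Among the named genes, signs turned for values that passed no test: with quintile centring Hspa4 (-0.0069) and Hspd1 (-0.011) in WT mice and Cct4 (-0.0048), Dnaja2 (-0.00076) and Hspa12b (0.012) in BDNF het-Met mice, and with inverse-variance weighting the mean of Ddit3 (-0.012). The causes were not tested. No paired analysis was possible because values per library were not analysed here, and leaving out each library was not run for the same reason. Adjustment over all genes left no member in any comparison. The unknown depth and the SE limit what is detectable, with the largest SE of a member in Dnajb13 (0.52 in WT mice).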

Other observations

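The joint F test over all groups also holds the contrast between genotypes. It had an uncorrected p below 0.05 in 3 of 63 members (4.76%), against 7.43% of all genes. After the squared t of both CORT comparisons was taken from 3 times F, the remainder, a statistic with no p that is only an approximate reading of the genotype contrast (it fell slightly below 0 in some members, such as -0.045 for Hspa1a), had a median of 0.36 in members and 0.43 in all genes. Dnajc28 had the highest remainder of the 63, 7.52, at the 98.8th percentile of all genes (F 7.32, uncorrected p 0.00582). The highest of 63 genes picked at random would often stand as high. The next members were Dnajc13 at 2.97 and Hspbp1 at 2.94. Of the 8 members on chromosome 2, where Bdnf lies, the nearest were Dnajc24, 3.71 Mb before it, with 0.88, and Dnajc17, 9.50 Mb after it, with 0.25.

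Processed copies of chaperone genes were measured under names of their own. Gm7816 and Gm15542, which share 1194 bases with Dnaja1 at 99.3% and 99.4% identity, had log2 fold changes of 0.22 ± 0.06 (uncorrected p 0.00385) and 0.15 ± 0.06 (uncorrected p 0.0279) in BDNF het-Met mice, and 0.03 ± 0.07 and 0.10 ± 0.07 in WT mice. Dnaja1 itself had 0.07 ± 0.05 in BDNF het-Met mice. These 2 copies were picked after their values were seen, and 13.2% of all genes were called in that comparison. Gm8355, a copy of Hspa8, was called there too. Most copies of other members were not, such as Hspd1-ps3 (0.09 ± 0.05), Dnajc19-ps (-0.15 ± 0.10) and Gm6210 (0.01 ± 0.16). Whether the reads of Gm7816 and Gm15542 came from Dnaja1 was not tested.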
